A study of Sus scrofa with 6 samples.

Results

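The genes described here are 41 inflammatory mediators, acute phase genes and leukocyte adhesion molecules, read in primary cells of the pig external ear. They were found as 1 serum amyloid A model by its identifier (ENSSSCG00000028525), 28 genes by the symbol of their gene identifier and 8 by the protein name in the deposited annotation. That gave 37 genes in 39 gene models, out of 19670 models in the whole series, because CSF1 has 3 models. IL1RN, IL11, CXCL10 and PTGS2 had no matched model and were not analysed here. The members were chosen by function, but with the fold changes and adjusted p-values of the same comparison known, and the serum amyloid A model and VCAM1 were already among the models past the threshold. Their differences are therefore given as a description with no p, and the p-values of the other members are those of a fit over all genes.

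The libraries came from cartilage cells of the auricle, released from the tissue by enzymes. The treated cells were kept with GW0742, which switches on the nuclear receptor PPARD, and the control cells with the solvent DMSO, each for 24 h and each in 3 libraries. Both groups came from the same 4-month-old pig, a Duroc x (Landrace x Large White) hybrid that carries wild-type PPARD. Whether each library had its own culture is not stated, so the p-values reflect the spread among 6 libraries of 1 animal, and this spread may be technical.

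Inflammatory signals reach the nucleus by a few shared routes. Receptors of the IL-1 and TNF families free the NF-kB subunits from their inhibitors, and the IL-6 family signals through IL6ST to STAT3. The target genes encode chemokines that draw leukocytes, adhesion molecules such as VCAM1 and ICAM1 that hold them, growth factors of myeloid cells, and acute phase proteins such as the serum amyloids. In cartilage the same mediators are known for their part in matrix breakdown.

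The libraries held between 13133894 and 16913742 reads, and 14146 models (71.9%) were deep enough to test. Chondrocyte markers summed to 1888 to 2032 CPM (reads scaled to the size of the library) with GW0742 and 2329 to 2467 CPM with DMSO, with 3 of 9 tested markers above 0 in log2 fold change and 6 below. Fibroblast and perichondrial markers summed to 51652 to 57333 CPM with GW0742 and 57317 to 62326 CPM with DMSO, most of it COL1A2 and VIM, while 4 of 8 tested markers lay above 0 and 4 below, with a median of 0.03. COL2A1 and ACAN were present in every library, whereas the chondrocyte markers MATN1 and CNMD were at or below 0.131 CPM in all 6. ACAN had 583, 589 and 558 CPM with GW0742 and 853, 810 and 785 CPM with DMSO. It was lower past the threshold in edgeR (adjusted p = 0.0185), while the groups of COL2A1 overlapped. With 1 library left out, ACAN passed in 3 of 6 edgeR fits, with adjusted p between 0.0388 and 0.105. For any gene of a mixed culture, fewer cells of a type and less RNA per cell cannot be told apart.

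The members covered a wide range of levels. On the RPKM scale, which corrects for model length, LCN2 stood highest, at 249, 239 and 265 RPKM in the GW0742 libraries and 155, 222 and 196 RPKM in the DMSO libraries. CCL2 came next, at 119, 111 and 135 RPKM with GW0742 and 72.7, 80.6 and 91.4 RPKM with DMSO. LCN2 encodes lipocalin-2, a protein that binds bacterial iron carriers, and CCL2 encodes the main chemokine for monocytes. RELA had 53.0, 54.2 and 53.3 RPKM with GW0742 and 56.4, 54.8 and 53.0 RPKM with DMSO. STAT3 had 51.1, 56.9 and 56.2 RPKM with GW0742 and 49.0, 51.5 and 47.5 RPKM with DMSO. The CSF1 model ENSSSCG00000006815 had 43.1, 74.7 and 56.6 RPKM with GW0742 and 51.3, 43.2 and 50.9 RPKM with DMSO. With DMSO the ranges of STAT3 and this CSF1 model overlapped, and RELA lay above both. The serum amyloid A model was 14th by its mean RPKM in the DMSO libraries.

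**Figure D1:**
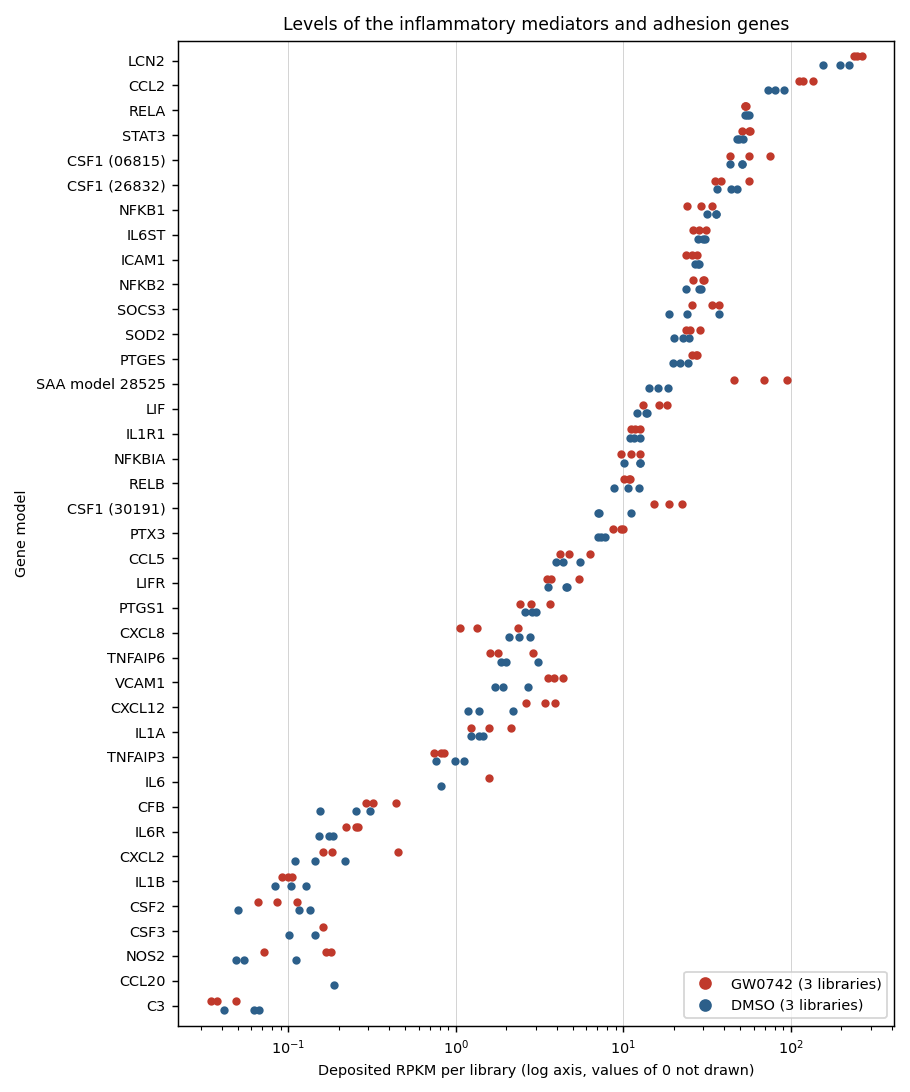
Deposited RPKM (log axis) of the 39 models of the list in each library, in the order of their DMSO means, with GW0742 points above DMSO points. LCN2 and CCL2 lie highest, STAT3, IL6ST and the NF-kB subunits lie in the middle to upper range in both groups, and the classical inducible cytokines at the bottom lie near 0.

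At the other end stood the classical inducible cytokines. IL1B, which encodes the secreted form of interleukin-1 made mostly by myeloid cells, had 1, 1 and 1 reads with GW0742 and 1, 2 and 2 reads with DMSO. Its model, ENSSSCG00000008087, was found by protein name. The RefSeq gene table of another assembly, Sscrofa11.1, lists that protein under IL1B2, so the reads are those of this model only. CSF2, a growth factor of granulocytes and macrophages, had 1, 1 and 1 reads with GW0742 and 1, 1 and 2 reads with DMSO. CCL20, a chemokine for dendritic cells and lymphocytes, had 0 reads in all 3 GW0742 libraries and 2, 0 and 0 reads in the DMSO libraries. A count of 0 allows up to 0.187 to 0.230 CPM in a GW0742 library, by a floor of 3 reads that covers counting error only. The models found by symbol for CXCL2, CSF3, NOS2, C3 and IL6 were also too low to test, with at most 29 reads in any library. Another CSF3 model, ENSSSCG00000017482, had 3, 12 and 13 reads with GW0742 and 3, 10 and 8 reads with DMSO. Its groups overlapped, and its log2 fold change of 0.44 did not pass in edgeR (adjusted p = 0.735). NOS2, which makes nitric oxide in inflamed cartilage, had 10, 11 and 5 reads with GW0742 and 3, 6 and 4 reads with DMSO, so the ranges overlapped.

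In all, 31 models of 29 genes were deep enough to test, and 8 were not. The threshold was an adjusted p under 0.05 in the edgeR quasi-likelihood test, past which 0.184% of all tested models were higher and 0.0778% lower. The 2 members past it, the serum amyloid A model and VCAM1, were known to be so when the list was chosen, so nothing is read from their count. Of the other 29 members 0 passed in either direction in edgeR. At an unadjusted p under 0.05 in edgeR, 6 of these 29 were higher and 1 lower, where all tested models gave 7.93% and 8.91%. DESeq2 called 2 of the 29 higher, CCL2 and the CSF1 model ENSSSCG00000030191, and 0 lower, with 1.46% and 1.65% called over all models. The count of 2 in edgeR was lost without most single libraries: it was 0 without GW0742 replicate 1, DMSO replicate 1 or DMSO replicate 3. Without GW0742 replicate 2 it was 1, the serum amyloid A model. Without DMSO replicate 2 it was also 1, but this was the CSF1 model ENSSSCG00000030191. There the serum amyloid A model and VCAM1 both failed to pass.

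**Figure D2:**
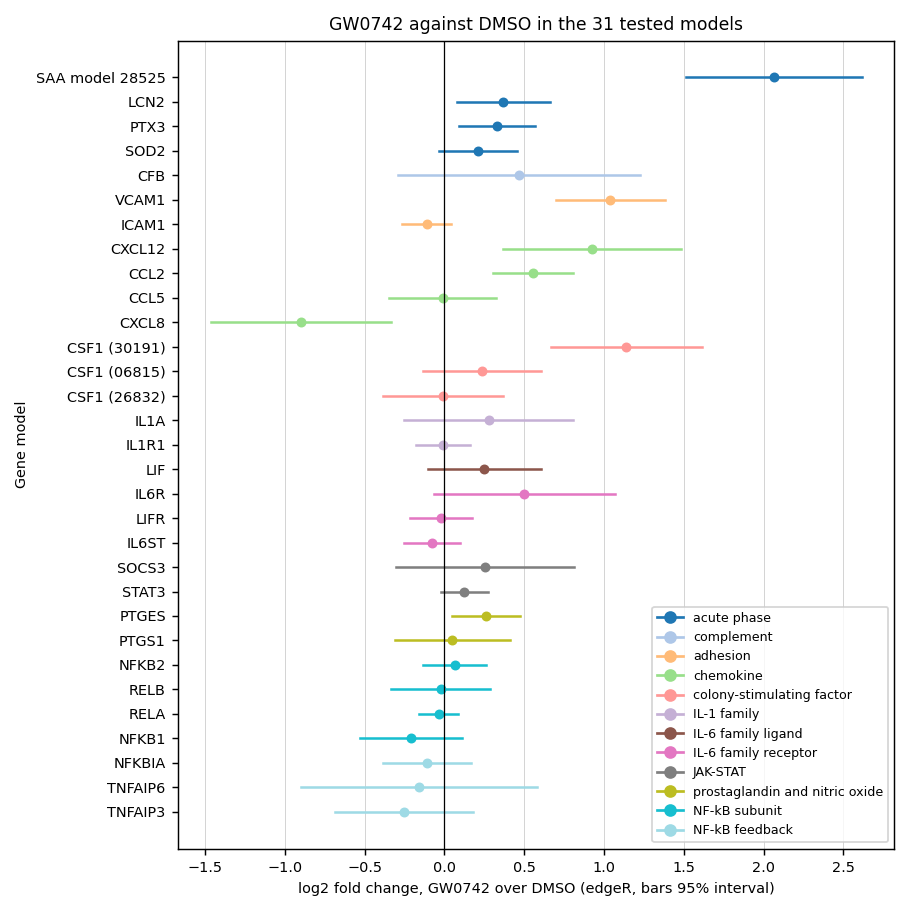
Log2 fold change of GW0742 over DMSO with its 95% interval (edgeR) for the 31 tested models, coloured by role. The serum amyloid A model lies at 2.07, VCAM1 at 1.04, and RELA, RELB, NFKB2, LIFR and IL6ST lie within 0.1 of 0. The serum amyloid A model and VCAM1 were chosen with their results known, so their intervals are no test.

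The median log2 fold change of the 31 models was 0.12, against -0.00 for all tested models, and 18 lay above 0 and 13 below. Of all tested models 49.7% lay above 0. Without the serum amyloid A model and VCAM1 the median was 0.06. For 14 of the 31 the whole 95% interval lay within 0.5 log2 units of 0. The CPM ranges of the groups did not overlap in 10 members, 9 of them higher with GW0742 and 1 lower. The 9 include the serum amyloid A model and VCAM1, which were chosen with their results known. Among the 29 tested members without these, 7 were apart and higher and 1 was apart and lower. Over all tested models the groups were apart and higher in 11.4%, and apart and lower in 12.1%. The remaining 21 of the 31 tested members had overlapping groups.

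Among the acute phase genes, the serum amyloid A model moved most. Serum amyloid A is a lipoprotein-bound protein that liver and stromal cells release in inflammation. The model had 43.8, 58.4 and 28.9 CPM in GW0742 libraries 1, 2 and 3, against 10.15, 9.24 and 11.8 CPM in the DMSO libraries. Every GW0742 library lay above every DMSO library, with a spread far wider among the GW0742 libraries, where replicate 2 was highest and replicate 3 lowest. The means were 43.7 ± 14.7 CPM with GW0742 and 10.4 ± 1.31 CPM with DMSO (SD, n = 3 each), a log2 fold change of 2.07. This value is a description, because the model was chosen with its result known. When any 1 library was left out, the log2 fold change stayed between 1.79 and 2.29.

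The deposited annotation names this model's protein a serum amyloid A2 precursor, but the RefSeq gene table of another assembly, Sscrofa11.1, lists that protein under SAA3, so it is called by its identifier here. The deposited annotation has 3 further serum amyloid A models. ENSSSCG00000013369 had 2.91, 3.43 and 1.89 CPM with GW0742 and 1.96, 0.751 and 1.44 CPM with DMSO. Its groups overlapped, and its log2 fold change of 0.96 did not pass in edgeR (adjusted p = 0.237). The models ENSSSCG00000013370 and ENSSSCG00000021847 had at most 7 reads in any library and were not tested. The members of this family are alike in sequence, so reads may have been shared among them.

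**Figure D3:**
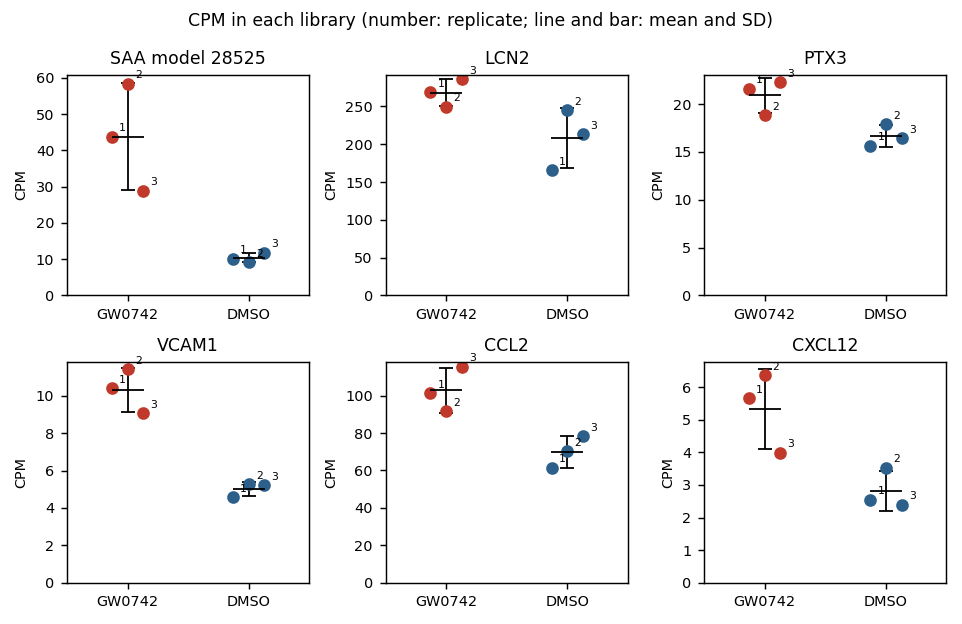
CPM in each library for 6 members, with the GW0742 libraries left of the DMSO libraries, the replicate number beside each point, and the mean and SD as line and bar (n = 3 each). The groups do not overlap in any panel, because the 6 were taken from the 9 members apart and higher with GW0742. Over all tested models 11.4% were apart and higher. CXCL8, apart and lower, and the members with overlapping groups are not drawn. GW0742 replicate 3 is the lowest of its group for the serum amyloid A model, VCAM1 and CXCL12 and the highest for LCN2, PTX3 and CCL2.

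The other acute phase genes differed less. LCN2 had 269, 250 and 286 CPM with GW0742 and 166, 245 and 213 CPM with DMSO. The groups were apart by a narrow gap, since DMSO replicate 2 nearly reached GW0742 replicate 2. Its log2 fold change of 0.37 (95% interval 0.08 to 0.66) did not pass in edgeR (adjusted p = 0.203) or in DESeq2 (adjusted p = 0.0590). PTX3, a secreted pentraxin that binds complement and microbes, averaged 20.9 ± 1.83 CPM with GW0742 and 16.7 ± 1.12 CPM with DMSO (SD, n = 3 each). Its groups were apart, and its log2 fold change of 0.33 did not pass in edgeR (adjusted p = 0.177). SOD2, the manganese superoxide dismutase of mitochondria and an NF-kB target, averaged 39.7 ± 3.64 CPM with GW0742 and 34.3 ± 4.12 CPM with DMSO, with overlapping groups (log2 fold change 0.21, edgeR adjusted p = 0.364).

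Of the leukocyte adhesion molecules, VCAM1 was higher with GW0742 and ICAM1 did not pass. VCAM1, which binds the integrin VLA-4 on monocytes and lymphocytes, had 10.4, 11.4 and 9.08 CPM with GW0742 and 4.57, 5.26 and 5.22 CPM with DMSO. All 3 GW0742 libraries lay above all 3 DMSO libraries, and the spread of the CPM within each group was small. The means of 10.3 ± 1.17 CPM with GW0742 and 5.01 ± 0.385 CPM with DMSO gave a log2 fold change of 1.04. This value is a description, because VCAM1 was chosen with its result known. On the RPKM scale VCAM1 stood at 3.85, 4.34 and 3.57 with GW0742 and 1.71, 2.68 and 1.92 with DMSO. There the DMSO spread was wider for its mean, at 2.10 ± 0.512 RPKM (SD, n = 3). ICAM1, the ligand of the leukocyte integrin LFA-1, had a higher level of 25.7 ± 1.91 RPKM with GW0742 and 27.7 ± 0.851 RPKM with DMSO. Its groups overlapped, and its log2 fold change was -0.11 with a 95% interval of -0.27 to 0.04 (edgeR adjusted p = 0.447).

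The chemokines did not share a direction. CCL2 had 101, 91.7 and 115 CPM with GW0742 and 61.5, 70.1 and 78.4 CPM with DMSO. The GW0742 libraries lay above the DMSO libraries, and GW0742 replicate 3 was the highest. The log2 fold change of 0.55 (95% interval 0.30 to 0.80) missed the threshold in edgeR (adjusted p = 0.0776) and passed it in DESeq2 (adjusted p = 0.000351). The deposited protein name of this model is uncharacterized protein LOC101326847. A second model, ENSSSCG00000030066 of 218 bases, is linked to CCL2 by that name alone. It had 233, 82 and 69 reads with GW0742 and 0 reads in each DMSO library. With the reads of both models added together, CCL2 had 119, 96.8 and 120 CPM with GW0742 and 61.5, 70.1 and 78.4 CPM with DMSO. That sum had a log2 fold change of 0.68 and passed in edgeR (adjusted p = 0.0406), which the first model alone did not. The second model has reads in the GW0742 libraries alone and was picked with its values in view, so this pass is a description. Over all summed models 0.388% were higher, 0.173% lower and 0.561% either of these. Part of the CCL2 difference on this scale therefore sits in a short model that the DMSO libraries do not show at all.

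CXCL12, the stromal chemokine that retains progenitor cells and leukocytes through CXCR4, had 5.67, 6.36 and 3.99 CPM with GW0742 and 2.55, 3.53 and 2.40 CPM with DMSO. The groups were apart, with GW0742 replicate 3 close to DMSO replicate 2. Its log2 fold change of 0.92 (95% interval 0.37 to 1.48) did not pass in edgeR (adjusted p = 0.129) or in DESeq2 (adjusted p = 0.0841). The receptors of CXCL12 were on a list of further chemokine genes. CXCR4 had 2.30, 3.74 and 0.915 CPM with GW0742 and 0.178, 0.0751 and 0.420 CPM with DMSO, the DMSO values resting on 3, 1 and 7 reads. It was deep enough to test through its GW0742 libraries alone, so its values are given as a description with no test. ACKR3, the scavenging receptor of CXCL12, had 217, 207 and 230 CPM with GW0742 and 156, 189 and 174 CPM with DMSO. Its groups were apart, and its log2 fold change of 0.33 did not pass in edgeR (adjusted p = 0.112) and passed in DESeq2 (adjusted p = 0.00880).

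CXCL8, the chemokine for neutrophils also called interleukin-8, was the member whose groups were apart with lower values under GW0742. Its model ENSSSCG00000008953 had 1.45, 2.49 and 1.96 CPM with GW0742 and 4.21, 3.15 and 3.72 CPM with DMSO, a log2 fold change of -0.90 (95% interval -1.46 to -0.34) that did not pass in edgeR (adjusted p = 0.139). A second interleukin-8 model, ENSSSCG00000027291, went the other way, with 1.91, 4.99 and 3.53 CPM with GW0742 and 2.31, 1.80 and 1.74 CPM with DMSO (log2 fold change 0.84, edgeR adjusted p = 0.265). Added together the models had 3.37, 7.48 and 5.49 CPM with GW0742 and 6.53, 4.96 and 5.46 CPM with DMSO. The summed groups overlapped, with a log2 fold change of -0.04 (95% interval -0.62 to 0.54, edgeR adjusted p = 0.955). CCL5, a chemokine for T cells and monocytes, averaged 7.93 ± 0.633 CPM with GW0742 and 8.03 ± 1.01 CPM with DMSO, with a log2 fold change of -0.01 (edgeR adjusted p = 0.978) and overlapping groups. CXCL2, a neutrophil chemokine, was untested by its symbol, and another model named as that chemokine, ENSSSCG00000000242, had a log2 fold change of -0.54 (edgeR adjusted p = 0.324). The deposited protein name of the symbol model is hypothetical protein LOC100525528. The sum of the 2 models of that name had a log2 fold change of -0.69 with overlapping groups (edgeR adjusted p = 0.337).

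**Figure D4:**
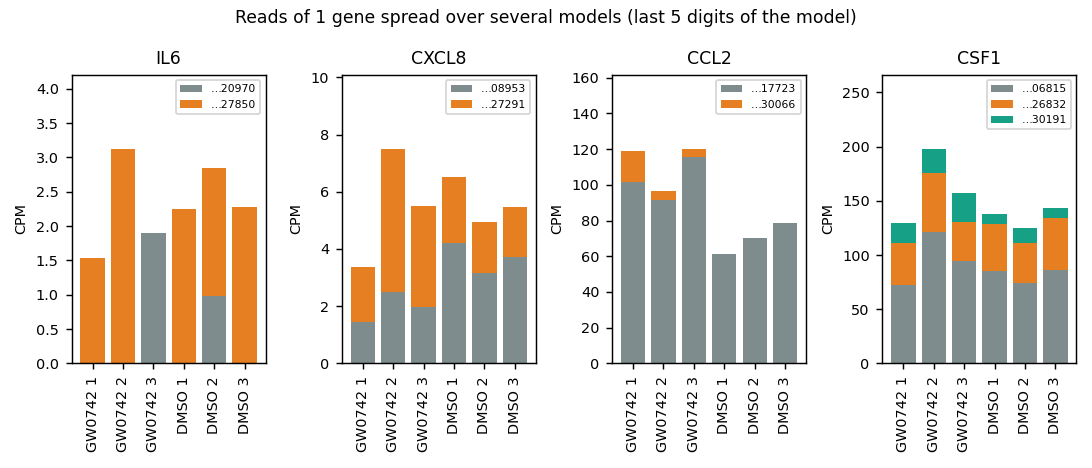
CPM in each library, stacked over the models that share the protein name of IL6, CXCL8, CCL2 or CSF1, with the GW0742 libraries left of the DMSO libraries. The IL6 reads lie in 1 model or the other in all libraries except DMSO replicate 2, and the short CCL2 model ENSSSCG00000030066 appears with GW0742 alone.

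CSF1, the growth factor that macrophages and osteoclasts need to live, was split over 3 models. ENSSSCG00000030191 had 18.5, 21.8 and 26.9 CPM with GW0742 and 8.55, 13.7 and 8.58 CPM with DMSO. No GW0742 library overlapped the DMSO range, and the log2 fold change of 1.14 (95% interval 0.66 to 1.61) missed the threshold in edgeR (adjusted p = 0.0692) and passed it in DESeq2 (adjusted p = 4.03e-05). Without DMSO replicate 2 it passed in edgeR as well (adjusted p = 0.0454). The more abundant models ENSSSCG00000006815 and ENSSSCG00000026832 had log2 fold changes of 0.24 and -0.01, with overlapping groups. The sum of the 3 models was 129, 197 and 157 CPM with GW0742 and 137, 125 and 143 CPM with DMSO, so the groups overlapped, and its log2 fold change of 0.26 did not pass in edgeR (adjusted p = 0.346). The groups were thus apart in the least abundant model and overlapped in the sum.

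The interleukin-1 and interleukin-6 families gave no member past the threshold in edgeR or DESeq2. IL1A, the form of interleukin-1 that stays in or on the cell, averaged 3.17 ± 0.775 CPM with GW0742 and 2.63 ± 0.205 CPM with DMSO (log2 fold change 0.28, edgeR adjusted p = 0.585). IL1R1, its signalling receptor, averaged 44.2 ± 1.85 CPM with GW0742 and 44.5 ± 2.61 CPM with DMSO, and the 95% interval of its log2 fold change ran from -0.18 to 0.16. Both had overlapping groups.

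IL6 itself was read in a pair of models that traded places between libraries. The symbol model ENSSSCG00000020970 had 0, 0 and 1.89 CPM with GW0742 and 0, 0.976 and 0 CPM with DMSO, and ENSSSCG00000027850 had 1.53, 3.12 and 0 CPM with GW0742 and 2.26, 1.88 and 2.28 CPM with DMSO. Their sum was steadier, at 1.53, 3.12 and 1.89 CPM with GW0742 and 2.26, 2.85 and 2.28 CPM with DMSO. The summed groups overlapped, with a log2 fold change of -0.15 and a wide 95% interval of -0.77 to 0.47.

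LIF, a cytokine of the IL-6 family, averaged 11.9 ± 2.16 CPM with GW0742 and 9.98 ± 0.750 CPM with DMSO (log2 fold change 0.25, edgeR adjusted p = 0.455). Its receptor LIFR and the shared signal chain IL6ST had log2 fold changes of -0.02 and -0.08, with 95% intervals within 0.5 log2 units of 0. IL6R, the ligand-binding chain for interleukin-6, was low, at 1.25 ± 0.134 CPM with GW0742 and 0.877 ± 0.0876 CPM with DMSO. Its groups were apart on 12 to 20 reads per library, and its log2 fold change of 0.50 did not pass in edgeR (adjusted p = 0.380). Added to a second IL6R model, ENSSSCG00000006549, it had 1.68, 1.68 and 2.88 CPM with GW0742 and 1.78, 0.976 and 1.20 CPM with DMSO, and the summed groups overlapped. STAT3, the transcription factor downstream of these receptors, had a log2 fold change of 0.12 with a 95% interval of -0.02 to 0.27. SOCS3, the feedback inhibitor that STAT3 induces, averaged 16.4 ± 2.76 CPM with GW0742 and 13.9 ± 5.15 CPM with DMSO, where DMSO replicate 2 was the highest of all 6 libraries (log2 fold change 0.26, edgeR adjusted p = 0.638).

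For prostaglandins, the values covered the constitutive cyclooxygenase PTGS1 and the terminal synthase PTGES, while the inducible PTGS2 was not analysed here. PTGES, which makes prostaglandin E2, averaged 33.5 ± 1.82 CPM with GW0742 and 27.9 ± 2.68 CPM with DMSO. Its groups were apart, and its log2 fold change of 0.26 (95% interval 0.05 to 0.48) did not pass in edgeR (adjusted p = 0.213). PTGS1 averaged 11.1 ± 2.19 CPM with GW0742 and 10.7 ± 0.657 CPM with DMSO, with overlapping groups and a log2 fold change of 0.05. In the complement system, CFB, the protease of the alternative pathway, had 5 to 13 reads per library and a log2 fold change of 0.47 with an interval of -0.29 to 1.22. C3, the central complement protein, was untested by its symbol, and a longer model of the same protein, ENSSSCG00000013665, had a log2 fold change of -0.02 (edgeR adjusted p = 0.991).

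Of the 4 NF-kB subunits 0 passed in edgeR or DESeq2, 0 had an unadjusted p under 0.05 in edgeR, and 3 had a 95% interval within 0.5 log2 units of 0. RELA, the main activating subunit, had a log2 fold change of -0.04 with a 95% interval of -0.16 to 0.09, the narrowest of the NF-kB subunits. NFKB2 and RELB, the pair of the non-canonical branch, had log2 fold changes of 0.06 and -0.02. NFKB1 averaged 12.01 ± 1.90 CPM with GW0742 and 13.9 ± 1.23 CPM with DMSO, with overlapping groups and a log2 fold change of -0.21 (edgeR adjusted p = 0.488). The genes that NF-kB induces as feedback had log2 fold changes below 0 that did not pass: NFKBIA at -0.11, the ubiquitin editor TNFAIP3 at -0.25, and TNFAIP6, a secreted hyaluronan-binding protein, at -0.16. In edgeR their adjusted p-values were between 0.541 and 0.845, and in all 3 the groups overlapped.

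Further genes of the same pathways were read from 8 lists that were also chosen with results known. Of their 88 tested entries, 0 passed in either direction in edgeR, 14 were higher and 5 lower there at an unadjusted p under 0.05, and DESeq2 called 4 higher and 1 lower. Over all tested models the shares were 7.93% and 8.91% at the unadjusted p and 1.46% and 1.65% in DESeq2. The entries include CXCR4, which was deep enough to test through its GW0742 libraries alone. The counts of higher entries are therefore a description, and nothing is read from them. In the list of receptor signalling towards IKK, 18 of 23 genes were tested, and 4 were higher and 0 lower at an unadjusted p under 0.05, beside 7.93% and 8.91% of all tested models. IL33, a nuclear alarmin, had 33.0, 40.7 and 34.1 CPM with GW0742 and 24.4, 22.6 and 24.8 CPM with DMSO. Every GW0742 library was above every DMSO library, and its log2 fold change of 0.59 missed the threshold in edgeR (adjusted p = 0.0651) and passed it in DESeq2 (adjusted p = 0.000810). In the same list, IKBKG had a log2 fold change of 0.33 and IRAK1 of 0.19, with edgeR adjusted p-values of 0.125 and 0.198, and DESeq2 called IKBKG (adjusted p = 0.0367). Of 8 tested genes among other NF-kB regulators, 0 had an unadjusted p under 0.05 in edgeR, and BCL3, NFKBIE and TNIP1 came nearest with log2 fold changes of 0.21, 0.25 and -0.13.

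Of 15 tested genes of IL-6 family and JAK-STAT signalling, 0 were higher and 2 lower at an unadjusted p under 0.05 in edgeR, with 8.91% lower over all tested models. These were the kinase JAK2 (log2 fold change -0.48) and the cytokine CLCF1 (-0.30). Their adjusted p-values in edgeR were 0.161 and 0.169. Among further chemokines, receptors and colony factors, beside CXCR4 and ACKR3, CXCL14 had a log2 fold change of 0.82 (edgeR adjusted p = 0.229).

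All 6 tested genes of a further acute phase and complement list lay above 0, beside 49.7% of all tested models, and DESeq2 called 0 of them. At an unadjusted p under 0.05 in edgeR 3 were higher and 0 lower, beside 7.93% and 8.91% of all tested models. The complement component C4A had a log2 fold change of 0.63 and the protease CFI of 0.31, with edgeR adjusted p-values of 0.207 and 0.247. Among 14 tested adhesion genes, ICAM2 and CD44, the hyaluronan receptor, had log2 fold changes of 0.98 and 0.19, and ALCAM of -0.21, with edgeR adjusted p-values between 0.155 and 0.242. The endothelial selectin SELE had at most 0.178 CPM in any library. Among 10 tested genes of lipid mediators, PTGES3 had a log2 fold change of -0.65 (edgeR adjusted p = 0.125, DESeq2 adjusted p = 0.00291), PTGES2 of 0.37 and PTGIS, the prostacyclin synthase, of -0.23. Of 11 tested genes of the interferon response, IRF7 had a log2 fold change of 0.76 (edgeR adjusted p = 0.189), IFIT1 of -0.41 and MX1 of 0.24.

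The GW0742 libraries differed among themselves, and not in the same order for every member. Relative to the DMSO mean, the serum amyloid A model stood at 4.21, 5.61 and 2.78 in GW0742 libraries 1, 2 and 3, VCAM1 at 2.08, 2.27 and 1.81, and CXCL12 at 2.00, 2.25 and 1.41. In these 3 members replicate 2 was highest and replicate 3 lowest. CCL2 stood at 1.45, 1.31 and 1.65, the CSF1 model ENSSSCG00000030191 at 1.80, 2.12 and 2.62, and LCN2 at 1.29, 1.20 and 1.38. In these 3 members replicate 3 was highest.

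**Figure D5:**
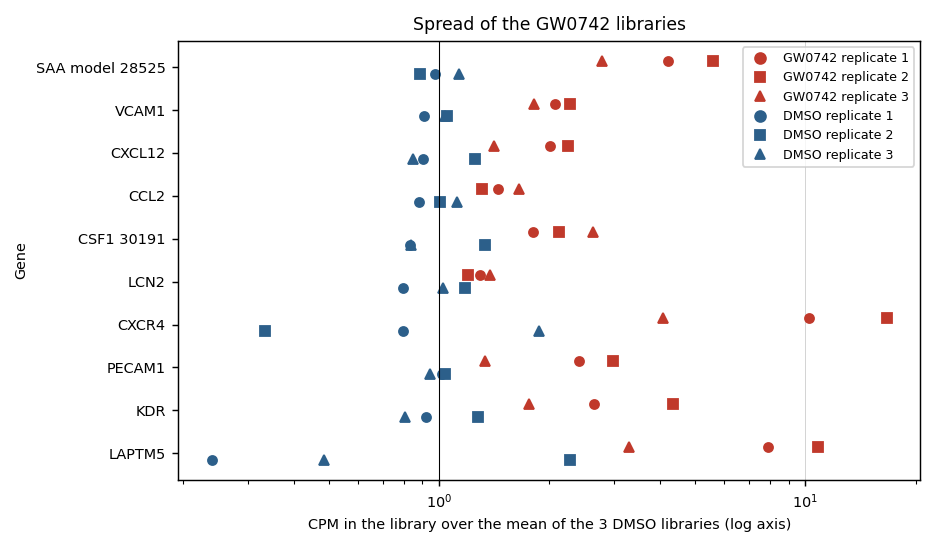
CPM of each library over the mean of the 3 DMSO libraries (log axis), with GW0742 above DMSO, for 6 members and for CXCR4, PECAM1, KDR and LAPTM5. GW0742 replicate 3 is the lowest GW0742 library for the serum amyloid A model, VCAM1, CXCL12 and the 4 genes below LCN2, and the highest for CCL2, the CSF1 model and LCN2.

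The summed endothelial markers, PECAM1 and KDR were also highest in GW0742 replicate 2 and lowest, among the GW0742 libraries, in replicate 3. Of 12 endothelial markers 9 had a model and 8 were tested, 7 of them above 0, with a sum of 172, 188 and 145 CPM in the GW0742 libraries and 115, 144 and 125 CPM in the DMSO libraries. PECAM1 had 28.3, 35.0 and 15.6 CPM with GW0742 and 11.9, 12.2 and 11.1 CPM with DMSO, and KDR had 3.75, 6.17 and 2.48 CPM with GW0742 and 1.31, 1.80 and 1.14 CPM with DMSO. Most of the sum came from CLDN5 and ERG. CLDN5 had 65.9, 66.3 and 62.4 CPM with GW0742 and 36.0, 58.4 and 50.6 CPM with DMSO. ERG, the marker below 0, had 50.3, 52.1 and 46.2 CPM with GW0742 and 51.8, 54.8 and 48.0 CPM with DMSO, with overlapping groups. EGFL7 was highest in GW0742 replicate 1, and TEK was lowest there among the GW0742 libraries. CDH5, VWF and EMCN had no matched model. Within these markers 0 passed in edgeR, 6 of the 8 tested were higher at an unadjusted p under 0.05, and DESeq2 called 2 higher. Over all tested models 49.7% lay above 0, 7.93% were higher at that p and 1.46% were higher in DESeq2. Low markers could enter the test through their GW0742 libraries alone. The part of endothelial cells in the values of the serum amyloid A model, VCAM1 and CXCL12 was not tested.

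Leukocyte and macrophage markers summed to 38.0 to 42.2 CPM with GW0742 and 29.6 to 34.8 CPM with DMSO, with 12 of 14 markers matched. Of the 7 tested, 6 had a log2 fold change above 0 and 1 below, beside 49.7% above 0 over all tested models. Here too low markers could enter the test through their GW0742 libraries alone, so nothing is read from this count. CD14, the most abundant of them, had 26.1, 23.0 and 22.7 CPM with GW0742 and 19.5, 23.9 and 23.6 CPM with DMSO, so its groups overlapped, and the value below 0 was that of SPI1 (log2 fold change -0.40, edgeR adjusted p = 0.638). PTPRC, the pan-leukocyte marker, had at most 0.237 CPM in any library, and MRC1, a macrophage marker, had 0 reads in the 3 DMSO libraries and in GW0742 replicate 2. LAPTM5, a lysosomal protein of blood cells, had 3.91, 5.36 and 1.63 CPM with GW0742 and 0.119, 1.13 and 0.240 CPM with DMSO. It was chosen with its values in view and has 2, 15 and 4 reads in the DMSO libraries, so no test is given. The part of leukocytes in the members' values was not tested.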

How the data were processed

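RNA was captured on oligo(dT) beads, fragmented, copied with random hexamers and read on an Ion Proton instrument, per the labels' protocols. No strand-marking step is named, so overlapping genes on opposite strands are not separable. The deposited library tables hold estimated counts and RPKM values made by the authors, per the file headers. The build was Sscrofa 10.2, per the submitters' processing notes. The aligner, the counter and the release of the annotation are each not given in the sources used here. Such counts can be divided among models of 1 protein, which makes those models uncertain. RefSeq tables belong to another assembly, so no coordinates are given.

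Estimated counts were rounded to whole numbers, filtered with filterByExpr (minimum count 10), TMM-scaled and tested with edgeR 4.0.16 (quasi-likelihood, R 4.3.3), GW0742 against DMSO, two-sided, with Benjamini-Hochberg adjustment over all tested models and a threshold of 0.05. CPM was computed from library sizes after TMM, and intervals cover 95%. No pair of libraries within a group agreed within sampling noise. Precision follows depth: a floor of 3 reads is 0.178 to 0.230 CPM.

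The members, the lists and the tests were chosen with earlier results of these data known. Values in each library are given for the serum amyloid A model and VCAM1, for members past the threshold in edgeR or DESeq2, for tested members with groups apart by at least 1.5-fold, and for the 5 highest in RPKM. Each pathway list is given by its counts and up to 3 genes of lowest p, apart from some that are not reported here. Genes singled out beyond these, such as ACKR3 in full, LAPTM5, PECAM1, KDR and the second models, were picked with their values in view. The alternatives tried were median-of-ratios factors, DESeq2 1.42.0, no filter, leaving out each library, a replicate block, limma 3.58.1 on the deposited RPKM as log2(RPKM + 1) or log2(RPKM + 0.1), summed models, a robust prior and an adjusted p under 0.01.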

Additional observations from a re-analysis of the deposited data

How the results depend on the processing

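Over the 31 tested models, 391 of the values under another setting kept their direction and side of the threshold, 17 kept the direction and lost the call, 4 gained it and 22 changed sign. The count of members lower with GW0742 was 0 under every alternative run. That of members higher, 2 in edgeR, was 4 with DESeq2 and 3 with summed models. The summed models added CCL2, by a sum that includes a model with reads in the GW0742 libraries alone, so this call is a description. The count of members higher was 0 with no filter, either limma fit or an adjusted p under 0.01, and 0 to 2 without single libraries. Over all models, 26 higher and 11 lower became 207 and 234 with DESeq2, 13 and 3 with no filter, 13 and 2 with limma on log2(RPKM + 1), 7 and 4 on log2(RPKM + 0.1), 47 and 21 with summed models, 6 and 0 at 0.01, and 6 to 54 and 0 to 47 without single libraries. Replicate numbers did not pair the samples: deviations of same-numbered libraries correlated at 0.01, -0.03 and -0.10. With the replicate block, 0 members were higher, and 10 models were higher and 0 lower over all. The serum amyloid A model passed in edgeR without GW0742 replicate 2 or 3 only, and VCAM1 without GW0742 replicate 3 only. Both were chosen with their results known, so these passes are a description. Log2 fold changes near 0 changed sign in limma on log2(RPKM + 1) and log2(RPKM + 0.1) for IL1R1 (0.014 and 0.015), CCL5 (0.11 and 0.13) and RELB (0.011 and 0.013), and with summed models for the CSF1 model ENSSSCG00000026832 (0.26), the cause of which is the addition of the other CSF1 models; the cause of the others was not tested. Without single libraries the ranges crossed 0 for IL1R1 (-0.051 to 0.031), LIFR (-0.075 to 0.023), CCL5 (-0.083 to 0.090), ENSSSCG00000026832 (-0.23 to 0.11), PTGS1 (-0.12 to 0.17), TNFAIP6 (-0.46 to 0.11), NFKB2 (-0.012 to 0.12) and RELB (-0.15 to 0.11). With 3 libraries per group from 1 pig, the fit cannot speak for other animals, and members under about 10 reads per library could not be compared at this depth.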
